A study of Rattus norvegicus with 7 samples.

Results

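B2m and Nlrp3 are immune genes that were measured here in the rat dorsal root ganglion (DRG). They are 2 of the 38 genes that were named here, through a RefSeq accession, among the 38321 probes of the array. They were selected on measured values of these same arrays, as the immune genes among the named probes called higher in bone cancer pain (BCP) than in Sham rats, so their group difference is given here as a description, with no p. The 4 Sham rats had received heat-inactivated cells of a rat mammary carcinoma line in the tibia, and the 3 BCP rats live cells of the same line. All were Sprague Dawley rats, which the labels give as female, and the ipsilateral DRG was taken on postoperative day 12. Total RNA of each rat was hybridized to 1 single-colour (Cy3) Arraystar Rat LncRNA Microarray V2.0. The labels number the Sham arrays 1 to 4 and the BCP arrays 2 to 4.

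B2m encodes beta-2-microglobulin, the light chain that MHC class I heavy chains need in order to fold and reach the cell surface, where they present peptides to CD8+ T cells. Nlrp3 encodes the sensor of the NLRP3 inflammasome, a complex that activates caspase-1, which in turn cleaves the precursors of IL-1beta and IL-18. Class I molecules are made by nearly all nucleated cells, whereas NLRP3 is best known from macrophages and other myeloid cells, and the DRG holds resident macrophages and satellite glia beside its sensory neurons.

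Of the 7 arrays, 1 was dimmer than the rest. The share of spots that the scanner software flags as well above background was 86.6% to 89.0% on the 4 Sham arrays, 87.1% on BCP 2, 89.0% on BCP 3 and 71.4% on BCP 4. The median intensity of a spot was 37.4 on BCP 4 and between 69.6 and 76.2 on the other 6 arrays. The Sham arrays were scanned in 1 scan and the BCP arrays in another, so scan and group cannot be told apart in any value below. Precision is limited throughout by how few arrays there are.

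Both genes were higher in the DRG of every BCP rat than in that of any Sham rat. After quantile normalization B2m was 4.74-fold higher, and its probe was bright on every array. Nlrp3 was 3.27-fold higher on the same scale, but its probe was close to background, and the size of its difference depended on the background correction and on the scaling. Scaled to Actb, Gusb and Ldha in place of quantile normalization, B2m was 2.82-fold and Nlrp3 1.53-fold higher, and with the normexp background correction at an offset of 50 Nlrp3 was 1.24-fold higher. Both were among the 781 of 34407 kept probes (2.27%) that were called higher in BCP after quantile normalization, a call that needs a 2-fold difference and that Nlrp3 lost in both of these other settings. Both were also among the 12.5% of kept probes with every BCP array above every Sham array. The choice of the genes used this contrast, so nothing is read from these shares. In bulk tissue such as this, more cells of a type and more RNA per cell cannot be told apart.

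The B2m probe (CUST_1_PI421900130) was printed as 30 spots on each array, and all 120 spots of the Sham arrays and all 90 of the BCP arrays were well above background. Its quantile normalized log2 intensity was 13.77, 13.55, 13.70 and 13.57 on Sham 1 to 4, and 15.60, 16.02 and 16.07 on BCP 2, 3 and 4. The Sham arrays lay close together, the BCP arrays were all high with BCP 2 the lowest of them, and the groups did not overlap. The mean was 13.65 ± 0.10 (SD, n = 4) for Sham and 15.89 ± 0.26 (SD, n = 3) for BCP, a difference of 2.25 on the log2 scale (SE 0.14). The lowest BCP array was 1.83 above the highest Sham array, a gap larger than the spread within either group.

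The same order of groups was seen before any normalization between arrays. The mean B2m intensity over spots was 15585, 12311, 13838 and 12446.5 on Sham 1 to 4, and 55399.8, 90092 and 47557 on BCP 2, 3 and 4. On this linear scale BCP 4, the dim array, was the lowest of the BCP arrays, while after quantile normalization it was the highest, so the order of the BCP rats among themselves depended on the scaling. The spots of an array differed little from each other, with a coefficient of variation between 6.54% and 7.98% on the Sham arrays, 7.47% on BCP 2, 7.83% on BCP 3 and 3.46% on BCP 4. All 90 BCP spots were above all 120 Sham spots in normalized log2 intensity. The spots of an array are copies of the same probe, so this count adds no replicates to the arrays. No spot was saturated on any array, and background had little part in a signal of this size, since the local background around the B2m spots averaged between 14.9 and 16.2 on the Sham arrays and between 20.2 and 21.5 on the BCP arrays.

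**Figure D1:**
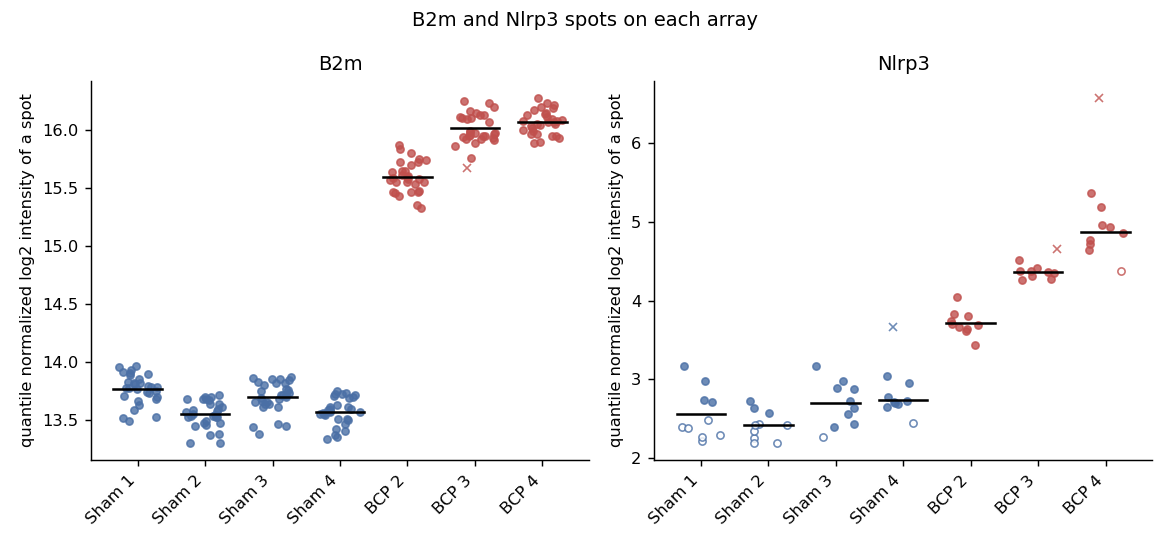
Quantile normalized log2 intensity (vertical axis) of each B2m spot (left, 30 per array) and each Nlrp3 spot (right, 10 per array) on the 4 Sham (blue) and 3 BCP (red) arrays, with the array mean as a black line. Filled points were well above background, open points were not, and crosses are outlier spots left out of the mean. The B2m array means lie at 13.55 to 13.77 in Sham and 15.60 to 16.07 in BCP, and those of Nlrp3 at 2.42 to 2.74 and 3.72 to 4.87.

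The Nlrp3 probe (A_44_P281733) was printed as 10 spots on each array and was dim. Of its 10 spots, 4, 3, 9 and 9 were well above background on Sham 1 to 4, and 10, 10 and 9 on BCP 2, 3 and 4. That made 25 of 40 Sham spots and 29 of 30 BCP spots. With over 50% of the spots required, the probe was well above background on 2 of the 4 Sham arrays, Sham 3 and Sham 4, and on all 3 BCP arrays. It was kept because 3 of the 7 arrays were enough, a condition that the BCP arrays met by themselves.

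The quantile normalized log2 intensity of Nlrp3 was 2.57, 2.42, 2.69 and 2.74 on Sham 1 to 4, and 3.72, 4.36 and 4.87 on BCP 2, 3 and 4. The Sham arrays were all low, the BCP arrays were high and more spread out, and the groups did not overlap. The mean was 2.61 ± 0.15 (SD, n = 4) for Sham and 4.31 ± 0.58 (SD, n = 3) for BCP, a difference of 1.71 on the log2 scale (SE 0.25). The gap between the lowest BCP array and the highest Sham array was 0.97. With each spot that was not well above background set to the lowest signal of a probe well above background on its array, the difference was 1.55. On Sham 1 that lowest signal was 6.13, above the dimmest Nlrp3 spot at 5.34. It was 3.68 on Sham 2 and 6.96 on BCP 4, below the dimmest Nlrp3 spots at 4.97 and 10.2. The setting therefore gives no bound on the difference. Of the 30 BCP spots, 27 were above all 40 Sham spots, and all 30 were above every Sham spot that was not an outlier. Here too the spots are copies within arrays and not replicates.

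On the linear scale before normalization between arrays, the mean Nlrp3 intensity was 7.20, 5.97, 7.83 and 8.46 on Sham 1 to 4, and 15.7, 23.7 and 19.5 on BCP 2, 3 and 4. The BCP arrays were again all above the Sham arrays. The value of BCP 4 included 1 outlier spot at 55.3, and the median over its spots was 15.6, close to BCP 2. The coefficient of variation over spots was 66.7% on BCP 4, against 10.7% on BCP 2, 8.07% on BCP 3 and between 14.1% and 26.1% on the Sham arrays.

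Because the intensities are already corrected for background by the scanner software, the uncorrected signal of the Nlrp3 spots was also read. Over all 10 spots, the median signal of a spot averaged 28.0, 25.2, 27.3 and 27.8 on Sham 1 to 4, and 35.4, 43.0 and 38.9 on BCP 2, 3 and 4. All BCP arrays were above all Sham arrays here too. The local background around these spots was 14.6, 14.5, 14.6 and 14.4 on Sham 1 to 4, and 17.9, 18.1 and 18.4 on BCP 2, 3 and 4, so it moved with the group in the same direction. The 153 negative control spots did not share that direction, and their mean signal was 19.0, 18.0, 18.3 and 18.5 on Sham 1 to 4, and 17.3, 17.1 and 18.5 on BCP 2, 3 and 4.

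The size of the Nlrp3 difference was then read with either background subtracted and no normalization between arrays. Less the local background and without outlier spots, the Nlrp3 signal was 13.4, 10.7, 12.7 and 12.8 on Sham 1 to 4, and 17.6, 24.6 and 17.8 on BCP 2, 3 and 4. It averaged 12.4 ± 1.19 (SD, n = 4) on the Sham arrays and 19.98 ± 4.01 (SD, n = 3) on the BCP arrays, a ratio of 1.62. BCP 3 was the highest array, and the groups did not overlap. Less the mean of the negative controls in place of the local background, the signal was 9.04, 7.11, 8.97 and 8.68 on Sham 1 to 4, and 18.1, 25.4 and 17.6 on BCP 2, 3 and 4. The averages were then 8.45 ± 0.91 (SD, n = 4) in Sham and 20.4 ± 4.38 (SD, n = 3) in BCP, a ratio of 2.41. The Sham values were lower by this subtraction than by the other, the BCP values were close, and again the groups did not overlap. In log2 units the difference was 0.68 and 1.26 by the 2 subtractions, against 1.32 for the deposited intensities with no normalization. Both subtractions were chosen after seeing the data. For B2m the ratio after subtraction of the local background was 4.76 with outlier spots kept. With outlier spots kept, the Nlrp3 ratio was 1.67. The part of the local background in the Nlrp3 difference was not tested further.

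**Figure D2:**
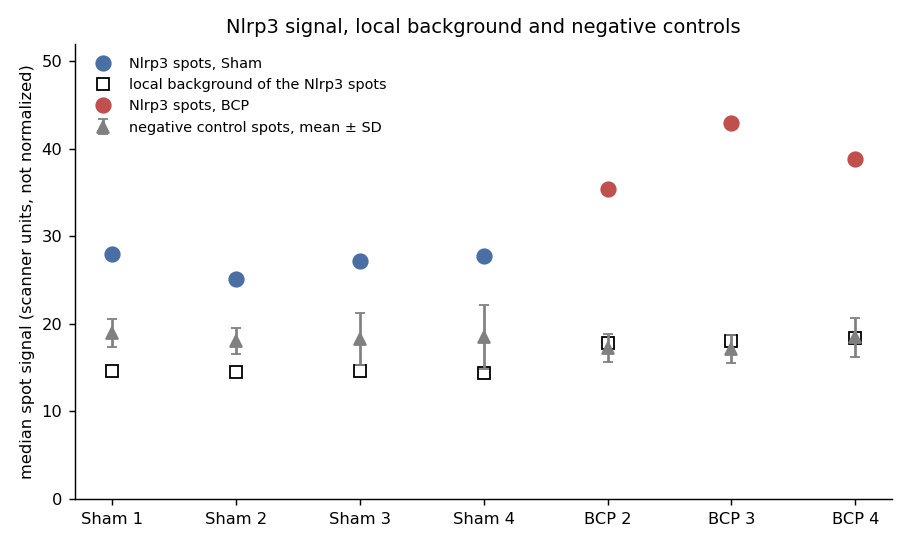
Mean over the 10 Nlrp3 spots of the median spot signal (circles, Sham blue and BCP red), mean local background around these spots (open squares) and mean ± SD of the 153 negative control spots (grey triangles) on each array, in scanner units without normalization. The Nlrp3 signal lies at 25.2 to 28.0 in Sham and 35.4 to 43.0 in BCP, while the local background is higher in BCP and the negative controls are not.

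Scaling between arrays moved both genes. For Nlrp3 without outlier spots, BCP 4 was the lowest BCP array with no normalization, at a log2 of 3.93. BCP 2 was then at 3.97 and BCP 3 at 4.54. After quantile normalization BCP 4 was the highest at 4.87, while every other array was lower than with no normalization. Quantile normalization left the median kept probe at a difference of -0.07, whereas with no normalization it lay at -0.38, and with scaling to Actb, Gusb and Ldha at -1.09. Relative to that median, the B2m difference was 2.31 after quantile normalization and 2.58 on either of the other scales, and the Nlrp3 difference was 1.77 and 1.70. These other scales differ only by a constant per array, so their equal values are fixed by construction. Not taken relative to the median, scaling to Actb, Gusb and Ldha gave a log2 difference of 1.5 for B2m and 0.62 for Nlrp3. These 3 reference genes were themselves 0.78 to 1.02 higher in BCP by their 30-spot probes after quantile normalization, and on the scale built from them Gusb and Ldha lay at -0.12 and -0.02 and Actb at 0.14. The normexp background correction left B2m at 2.23 with an offset of 50 and brought Nlrp3 to 0.31, and with an offset of 1, chosen after seeing the data, Nlrp3 was at 1.05 (2.07-fold). An offset of 50 added to a signal as dim as that of Nlrp3 shrinks its log2 difference by construction. The normexp correction also started from the median signal of a spot and not from the deposited intensity. The part of this other signal and of the local background in the lower Nlrp3 value at an offset of 1 was not tested. In each of these settings every BCP array was above every Sham array for both genes.

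**Figure D3:**
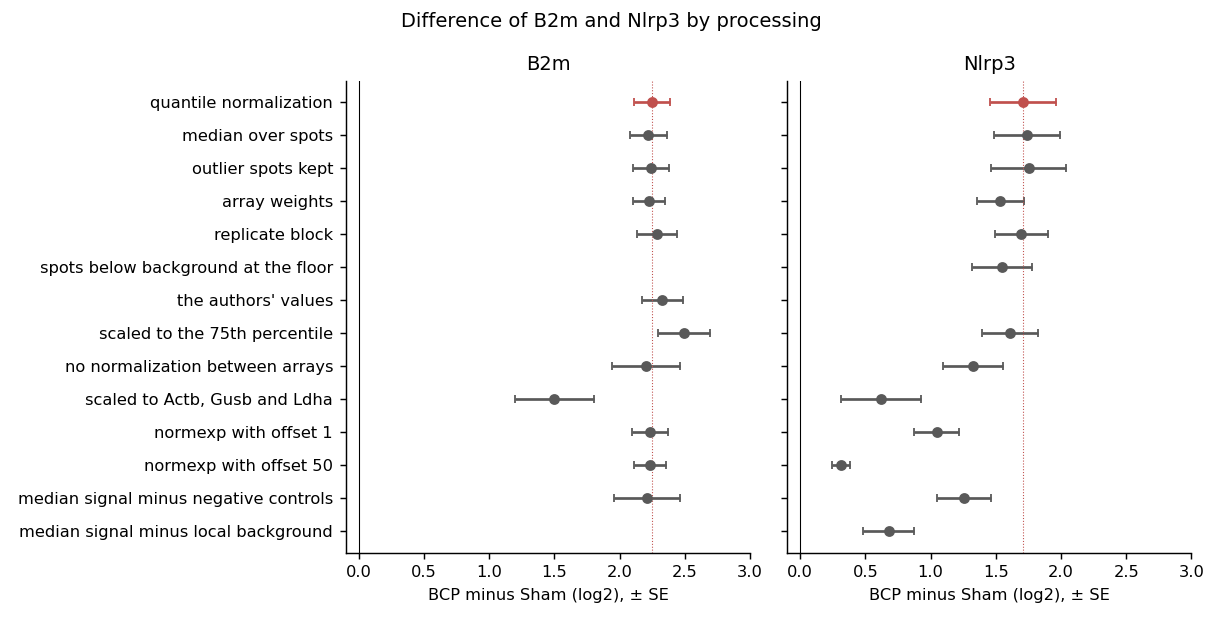
Difference of the group means, BCP minus Sham in log2 units (horizontal axis, ± SE), for B2m (left) and Nlrp3 (right) by processing setting, with quantile normalization in red and as a dotted line. The values of B2m lie at 1.5 to 2.49 and those of Nlrp3 at 0.31 to 1.75, where no Nlrp3 value was taken from the authors' table and B2m is not drawn for the floor or for the signal less local background.

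The 2 genes were set beside the other probes with a named gene. Apart from B2m and Nlrp3, 35 named probes of 34 genes were kept, and their differences ran from -0.54 to 1.13 with a median of 0.04. Both genes lay above that range after quantile normalization, the contrast they were selected on. With normexp Nlrp3 did not, since it lay at 1.05 below Nat1 at 1.11 with an offset of 1, and at 0.31 below Actb at 0.98 and 5 other probes with an offset of 50. Of these 35, limma called 1 higher and 0 lower, where 2.58% of all kept probes were called in either direction. Every BCP array was above every Sham array for 11 of the 35 and below for 4, against 12.5% and 18.2% of all kept probes. At an unadjusted p under 0.05 limma gave 10 higher and 4 lower at any size of difference, against 3952 higher and 5366 lower of the 34407 kept probes. With a 2-fold difference required as well, limma and the methods' t-test each gave 2 higher and 0 lower. Over all kept probes that rule gave 2.69% higher and 0.761% lower by limma, and 2.55% and 0.503% by the methods' t-test. The one called was Nat1, an arylamine N-acetyltransferase, just inside the threshold with a difference of 1.13 (SE 0.18, adjusted p = 0.0146 by limma), with all 3 BCP arrays above all 4 Sham arrays. Its difference fell under 2-fold, ending the call, with no normalization (0.83), with normexp at an offset of 50 (0.87) and with scaling to Actb, Gusb and Ldha (0.13). Just outside it were Actb at 1.02 with an adjusted p of 0.0972 and Gusb, which passed the adjusted p at 0.0329 (limma) but had a difference of 0.86, under 2-fold.

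B2m belongs to a set of 10 named genes printed with 30 spots, which are commonly used as reference genes. The other 9 ran from -0.36 to 1.02 with a median of 0.19. Of these 9, limma called 0, and 1, Actb, was past 2-fold and higher at an unadjusted p under 0.05, as 2.69% of all kept probes were. Hsp90ab1, a cytosolic chaperone, was the lowest and Actb, a cytoskeletal actin, the highest. B2m stood at 2.25, and the 2 ribosomal protein genes of the set, Rpl13a and Rplp1, had differences of 0.19 and 0.13, which became -0.52 and -0.59 with scaling to Actb, Gusb and Ldha. The 26 other named and kept probes with 10 spots, the kind that Nlrp3 belongs to, had a median of 0.02.

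**Figure D4:**
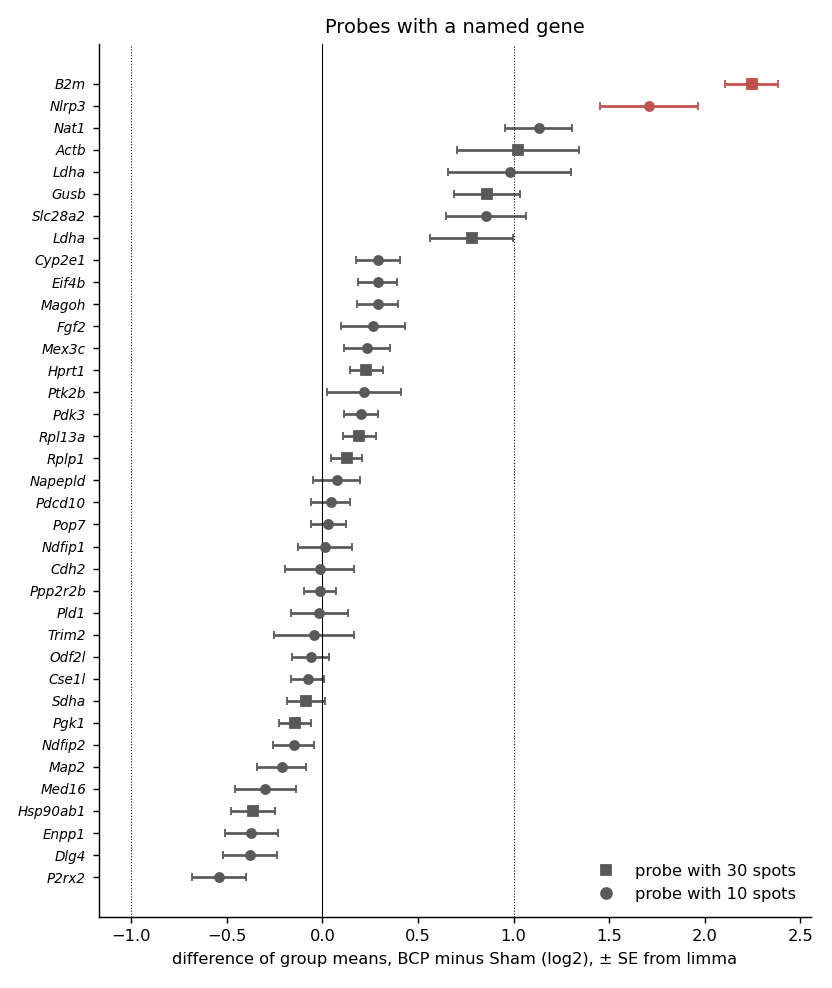
Difference of the group means, BCP minus Sham in log2 units after quantile normalization (± SE from limma), for the 37 kept probes with a named gene, with B2m and Nlrp3 in red and dotted lines at a 2-fold difference. B2m at 2.25 and Nlrp3 at 1.71 are the highest, followed by Nat1 at 1.13. Ldha has a probe of either kind.

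B2m and Nlrp3 followed each other over the 7 arrays, with Pearson's r = 0.966 for their normalized log2 values. The points share the group difference, the scan and the scaling, and r rests largely on the distance between the groups. Among named probes, those most like B2m after Nlrp3 were Nat1 (r = 0.961), Gusb (0.949), Rpl13a (0.931) and Hprt1 (0.928), each over 7 arrays. Those most like Nlrp3 were Gusb (r = 0.982), Hprt1 (0.971), B2m (0.966) and both Ldha probes (0.942 and 0.937). The likeness is one of pattern and not of size, since Hprt1 differed by 0.23 and Rpl13a by 0.19 between the groups after quantile normalization, and by -0.01 and 0.19 with no normalization. The named probes most opposed to Nlrp3 were those of Dlg4 (r = -0.926) and P2rx2 (r = -0.901), and those most opposed to B2m were Hsp90ab1 (r = -0.869) and P2rx2 (r = -0.859). Among unnamed probes, ASRNV20024160 (r = 0.999) was the most like B2m and ASRNV20008389 (r = 0.999) the most like Nlrp3.

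Of the other genes of their pathways, none had a probe that was named here, and 38282 probes of the array were not named. Of 19 genes listed for the NLRP3 inflammasome, Nlrp3 alone had a named probe, and of 22 listed for class I presentation, B2m alone. The heavy chains, the peptide transporters, caspase-1 and the interleukin-1 genes were therefore not analysed here. None of the 12 lists of cell type and injury markers matched a named probe, so the labelled tissue was not checked against its markers. Of genes outside these lists that neurons are known to express, P2rx2, a subunit of ATP-gated channels, had a difference of -0.54 (adjusted p = 0.0623 by limma), and Dlg4, a postsynaptic scaffold, of -0.38 (adjusted p = 0.14), each with all 3 BCP arrays below all 4 Sham arrays, as 18.2% of all kept probes had. The P2rx2 probe was dim, well above background on 6 of 7 arrays, and its difference was -0.93 with no normalization and -0.16 with normexp at an offset of 50. Map2, a microtubule protein of dendrites, had a difference of -0.21 with overlapping groups (adjusted p = 0.313 by limma). Other such genes lay near 0 or above it, with Ptk2b at 0.22, Cdh2 at -0.01, Ppp2r2b at -0.01 and Trim2 at -0.04. None of these 7 was called, and they were picked after their values were seen. The part of neurons, glia, macrophages, lymphocytes or carcinoma cells in the B2m and Nlrp3 differences was not tested.

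The promoters of the 2 genes are shown because both were higher in the same arrays. They are the 250 bases before the start of each gene in RefSeq, rat assembly GRCr8, both on the plus strand, at chr3:129549080-129549329 for B2m and chr10:44827848-44828097 for Nlrp3. Capitals mark matches, on either strand, to the motifs searched.
B2m: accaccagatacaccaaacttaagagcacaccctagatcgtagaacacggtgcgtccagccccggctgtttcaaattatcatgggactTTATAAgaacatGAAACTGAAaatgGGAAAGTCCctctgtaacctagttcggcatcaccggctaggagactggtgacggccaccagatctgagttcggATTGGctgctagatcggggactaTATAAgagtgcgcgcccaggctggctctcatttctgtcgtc
Nlrp3: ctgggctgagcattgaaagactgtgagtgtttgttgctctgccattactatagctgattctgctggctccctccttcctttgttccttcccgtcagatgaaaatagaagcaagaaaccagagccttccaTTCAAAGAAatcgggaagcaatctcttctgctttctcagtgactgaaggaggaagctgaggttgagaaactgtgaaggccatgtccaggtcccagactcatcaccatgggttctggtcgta

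In the B2m window, the core of an interferon-stimulated response element (GAAANNGAA, in 8.12% of the 33469 promoters of the same length) matched at -150 to -142 from the start. A kB core (GGANNNTCC, in 6.76% of promoters), the kind of sequence that NF-kB proteins bind, matched next to it at -137 to -129. A CCAAT box (CCAAT, in 34.0%) matched on the minus strand at -64 to -60. A TATA box (TATAA, in 24.0%) matched at -41 to -37, and again at -161 to -157 where it overlapped a match on the minus strand. In the Nlrp3 window the only match was to the gamma-activated sequence (TTCNNNGAA, in 7.67% of promoters), the kind that STAT proteins bind, at -121 to -113. Neither window held the AP-1 motif (TGANTCA, in 6.34%) or a GC box (GGGCGG, in 30.5%). The 2 windows shared no motif of the 7 searched. A match describes letters and not a bound site, and a motif without a match says nothing about its factor.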

How the data were processed

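The authors extracted the spots with Agilent Feature Extraction, version 11.0.1.1 per the file headers, while the methods name another version. The deposited intensity of a spot has background removed within its array and no normalization across arrays. The authors' own quantile normalized log2 values, which hold B2m, served as an alternative. Here the log2 intensities of the 41623 non-control spots were quantile normalized, outlier spots dropped and the remaining spots of each probe averaged. A probe counted as well above background when over 50% of its spots did, and 34407 probes that did so on 3 or more of 7 arrays were kept. Groups were compared with limma 3.58.1 (R 4.3.3). Calls needed a 2-fold difference besides an adjusted p (Benjamini-Hochberg) under 0.05. For B2m and Nlrp3 the fit gave the SE and the call they were chosen by, and no p is printed. The labels number the arrays within each group. Each array was taken as a separate rat because the paper's figure legend counts 3 and 4 rats. The members and lists were chosen with earlier results of these data known. Of 44 probes with a RefSeq accession, 39 were named through RefSeq's gene table of GRCr8, and 38282 probes are not named here. Genes named are B2m, Nlrp3, called and reference genes and, for each of the pair, the 5 named and at most 2 unnamed probes most correlated with it. Hsp90ab1, Rplp1, P2rx2, Dlg4, Map2, Ptk2b, Cdh2, Ppp2r2b and Trim2 were picked after their values were seen. Alternatives were other scalings, background corrections, filters, models and leaving out each array.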

Additional observations from a re-analysis of the deposited data

How the results depend on the processing

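B2m and Nlrp3 were higher in BCP in all 18 and 19 alternatives run for them. The B2m difference of 2.25 became 2.49 with the 75th percentile scaling and 1.5 with scaling to Actb, Gusb and Ldha, and in the other 16 it moved by less than the spread between arrays. The Nlrp3 difference of 1.71 became 1.32 with no normalization, 0.62 with scaling to these genes and 0.31 with normexp at an offset of 50. With alternatives chosen after seeing the data it was 1.05 (normexp, offset of 1) and, both without normalization between arrays and so to be set beside 1.32, 0.68 (signal minus local background) and 1.26 (signal minus negative controls). In the other 13 it moved by less than the spread between arrays. With each array left out in turn, B2m ran from 2.16 (without BCP 4) to 2.39 (without BCP 2) and Nlrp3 from 1.43 (without BCP 4) to 2.01 (without BCP 2). The authors' values gave none for Nlrp3.

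The 781 probes called higher became 320 with no normalization, 367 with scaling to Actb, Gusb and Ldha and 439 with normexp at an offset of 50, and ran from 478 (without Sham 2) to 1026 (without BCP 2). The 106 called lower became 36, 20402 and 45 in the same settings, 163 with array weights, 173 with the methods' t-test unadjusted and 44 after Benjamini-Hochberg, and 70 with normexp at an offset of 1, and ran from 37 (without Sham 2 or Sham 4) to 316 (without BCP 2). With scaling to the reference genes the median kept probe lay at -1.09, against -0.07 after quantile normalization. The cause of the other changes was not tested.

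With the replicate block, B2m was 2.28, Nlrp3 1.69, and 282 probes were called higher and 6 lower. That block treats a Sham and a BCP array with the same number as a pair. Deviations from the group means correlated at 0.124, -0.0036 and -0.0402 for the numbers 2, 3 and 4. With 4 Sham and 3 BCP arrays the deviations within a group depend on each other. The correlations therefore cannot decide whether the rats were paired. Signal over background limits Nlrp3, which was not well above background on Sham 1 and Sham 2.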
